A study of Homo sapiens with 6 samples.

Results

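Cholesterol and fatty acid synthesis was followed through 46 genes listed by name. They comprise the genes that sense cell sterol, the enzymes of the cholesterol pathway, proteins that move or store sterol, and the enzymes that make, desaturate, elongate and activate fatty acids. Of the 46, 45 were rows of the gene table, which held 20811 genes, and 41 of these averaged 10 RPM or more (reads scaled to a common library total). HuCCT1, a human intrahepatic cholangiocarcinoma line, had been given either a blank lentivirus that carries GFP and puromycin resistance (Lenti-CMV-GFP-2A-Puro-Blank; HuCCT1/CD90-) or a lentivirus for human THY1 (THY1-CMV-GFP; HuCCT1/CD90+). THY1 encodes CD90, a surface glycoprotein, and the CMV promoter drives strong expression in most cell types. Both lines were grown in the same RPMI medium with fetal bovine serum and received virus at the same multiplicity of infection. The labels give 1 transduced line for each virus, with 3 libraries sequenced from each, and do not say whether a line is a clone or a pool. Whether the 3 came from separate cultures is not stated, so that the p-values measure the spread between libraries, which may be technical.

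The libraries held 8587634 to 10551516 reads on genes. Each gene was read through 1 amplicon, so a level depends on that amplicon and levels are compared between lines and not between genes. THY1 gave 0, 0.107 and 0 RPM in HuCCT1/CD90- and 46.6, 51.8 and 73.8 RPM in HuCCT1/CD90+, as the labels say. All 7 cholangiocyte keratins and other markers of the duct lineage were above the floor of 3 reads, with a summed level of 10974 to 11722 RPM in HuCCT1/CD90+ against 8210 to 9314 RPM in HuCCT1/CD90-. Of cells known for lipid synthesis, 4 of 4 adipocyte markers and 4 of 5 hepatocyte markers, ALB among them, stayed at or under the floor in every library. The summed level of 5 fibroblast markers was 20.3 to 24.7 RPM in HuCCT1/CD90+ against 40.9 to 63.6 RPM in HuCCT1/CD90-, and its part in the results was not tested. All of these markers but COL1A1 were lower in HuCCT1/CD90+. COL1A1 gave 14.2 ± 0.186 RPM in HuCCT1/CD90+ against 13.5 ± 2.21 RPM in HuCCT1/CD90- (SD, n = 3). In the same order LUM gave 7.30 ± 2.33 against 26.4 ± 10.7 RPM and PDGFRB 0.697 ± 0.144 against 5.49 ± 0.541 RPM. DCN was at or under the floor in HuCCT1/CD90+ and COL1A2 at 0 there. Of 4 leukocyte markers 3 were at or under the floor. The sum of the 4 was 83.9 to 100.5 RPM in HuCCT1/CD90+ against 46.5 to 55.9 RPM in HuCCT1/CD90-, nearly all of it from CD68.

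Animal cells make cholesterol from acetyl-CoA by way of mevalonate, the isoprenoid farnesyl diphosphate, squalene and lanosterol. The sterol regulatory element binding proteins (SREBPs, encoded by SREBF1 and SREBF2) are transcription factors held in the endoplasmic reticulum by SCAP and the INSIG proteins while sterol is plentiful. When sterol falls, SCAP carries them to the Golgi, where proteases release the part that enters the nucleus. SREBP-2 is best known for genes of cholesterol synthesis, and SREBP-1c for genes of fatty acid synthesis. The liver X receptors, which bind oxysterols, raise SREBF1 and the genes for sterol efflux. RNA levels report transcript abundance and neither SREBP processing nor sterol content.

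Promoter sequence is shown for 6 of the enzymes called higher in HuCCT1/CD90+, 4 with and 2 without a CCAAT match, and for the SREBP genes, because the pathway is known for shared control through SREBP and the CCAAT-binding factor NF-Y. RefSeq windows on GRCh38.p14 of 300 bases, from 250 before the transcription start to 50 after it, were matched for 42 of the 46 genes. The 250 bases before the start are given 5′ to 3′ on the gene's strand. In the windows of HMGCS1, MVK, MVD and MSMO1 capitals mark CCAAT or its complement ATTGG, in that of SREBF2 they mark the sterol regulatory element TCACNCCAC, and those of CYP51A1, IDI1 and SREBF1 hold neither. The SREBF2 window also holds 1 ATTGG, left in lower case.
HMGCS1 (chr5:43313413-43313662, minus strand): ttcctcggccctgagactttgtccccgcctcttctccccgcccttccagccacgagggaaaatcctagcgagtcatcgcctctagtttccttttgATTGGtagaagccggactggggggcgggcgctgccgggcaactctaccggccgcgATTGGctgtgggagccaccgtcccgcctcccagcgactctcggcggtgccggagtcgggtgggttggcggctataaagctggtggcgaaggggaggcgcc
MVK (chr12:109573544-109573793, plus strand): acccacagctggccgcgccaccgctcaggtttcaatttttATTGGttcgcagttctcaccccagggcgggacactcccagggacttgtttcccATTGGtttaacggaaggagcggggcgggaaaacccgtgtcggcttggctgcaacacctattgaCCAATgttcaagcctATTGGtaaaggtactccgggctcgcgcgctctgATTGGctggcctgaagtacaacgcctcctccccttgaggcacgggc
MVD (chr16:88663092-88663341, minus strand): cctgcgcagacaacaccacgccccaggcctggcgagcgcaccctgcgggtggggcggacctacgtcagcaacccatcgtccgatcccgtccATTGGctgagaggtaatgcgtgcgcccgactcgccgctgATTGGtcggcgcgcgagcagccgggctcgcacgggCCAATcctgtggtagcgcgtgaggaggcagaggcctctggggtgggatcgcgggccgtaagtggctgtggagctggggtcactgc
MSMO1 (chr4:165327419-165327668, plus strand): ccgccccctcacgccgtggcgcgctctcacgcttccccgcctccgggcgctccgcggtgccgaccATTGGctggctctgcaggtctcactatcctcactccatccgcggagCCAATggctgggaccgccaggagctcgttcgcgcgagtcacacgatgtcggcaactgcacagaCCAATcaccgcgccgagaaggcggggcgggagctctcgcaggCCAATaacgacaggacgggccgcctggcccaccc
CYP51A1 (chr7:92134478-92134727, minus strand): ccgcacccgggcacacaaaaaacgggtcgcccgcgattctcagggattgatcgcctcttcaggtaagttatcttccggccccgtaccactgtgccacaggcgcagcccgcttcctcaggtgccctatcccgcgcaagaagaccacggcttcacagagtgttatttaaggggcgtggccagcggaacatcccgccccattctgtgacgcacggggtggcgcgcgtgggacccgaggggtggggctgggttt
IDI1 (chr10:1056705-1056954, minus strand): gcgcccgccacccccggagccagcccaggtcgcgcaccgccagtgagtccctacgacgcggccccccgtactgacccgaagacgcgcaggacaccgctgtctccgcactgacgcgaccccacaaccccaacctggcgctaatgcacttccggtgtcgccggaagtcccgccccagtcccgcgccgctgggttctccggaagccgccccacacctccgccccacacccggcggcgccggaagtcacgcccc
SREBF2 (chr22:41832855-41833104, plus strand): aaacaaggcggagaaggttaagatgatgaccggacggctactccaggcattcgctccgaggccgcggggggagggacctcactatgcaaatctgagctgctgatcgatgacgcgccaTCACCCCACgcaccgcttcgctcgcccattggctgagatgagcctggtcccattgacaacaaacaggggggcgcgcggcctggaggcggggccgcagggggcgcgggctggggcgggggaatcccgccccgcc
SREBF1 (chr17:17836987-17837236, minus strand): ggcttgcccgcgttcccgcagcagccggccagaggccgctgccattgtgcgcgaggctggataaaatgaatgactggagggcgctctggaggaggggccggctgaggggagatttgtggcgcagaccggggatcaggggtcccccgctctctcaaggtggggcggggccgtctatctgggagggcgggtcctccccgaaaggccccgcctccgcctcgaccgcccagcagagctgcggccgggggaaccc

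The HMGCS1 window held 2 CCAAT matches on either strand, that of MVD 3, that of MSMO1 4 and that of MVK 5, while those of CYP51A1 and IDI1 held none. A CCAAT match was present in 12 of 15 windows of mevalonate and sterol enzymes (80.0%), among them 8 of 9 of the sterol steps. The windows without a match were those of CYP51A1 and IDI1, both called higher in HuCCT1/CD90+, and of PMVK. The share was 34.6% of 35116 RefSeq promoters of the same length and 37.1% of the 7104 whose gene averaged 10 RPM or more. Over all matched members it was 25 of 42, with 12 of 18 among those called higher in HuCCT1/CD90+ and 13 of 24 among the others. The exact element TCACNCCAC was found once, in SREBF2, as TCACCCCAC beginning 133 bases before the start, beside 1.13% of all promoters. GC boxes (GGGCGG) were in 36 of 42 windows (85.7%), against 73.0% of those 7104 and 15786 of all 35116. E-boxes (CACGTG) were in 5 of 42 (11.9%), against 780 of those 7104 and 7.26% of all promoters. Both strands were searched, and 1 match overlapped a match of another motif. A match describes the letters of a window and is not a bound site. The search took exact letters only, so a window without a match may still hold a variant of the element.

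The enzymes of cholesterol synthesis were higher in HuCCT1/CD90+ in nearly every measured step, while the fatty acid genes went in both directions. Genes were called when limma's Benjamini-Hochberg adjusted p was at most 0.05 and the fold on the log2(RPM + 1) scale at least 1.5. By this rule 20 of the 45 members were higher in HuCCT1/CD90+, 7 were lower and 18 were not called. Of all 20811 genes 7.59% were called higher and 7.49% lower, and of genes averaging 10 RPM or more 11.3% and 10.4%. Of the 41 members at that level 20 were higher and 6 lower. Of the 8794 genes at that level the lines did not overlap in 2335 that were higher and 2283 that were lower. Among the 41 members this held for 22 and 9, and among all 20811 genes for 3601 and 3682. Lack of overlap was thus common and is given below as description only. The enzymes from HMG-CoA to cholesterol held 14 of the 20 higher calls, with 14 of the 16 matched by name higher and 1 lower, and a median log2 fold change of 1.71. With SC5D, which the table lists under an older symbol and which was not called, 14 of 17 were higher. The 17 fatty acid members held 5 higher and 3 lower calls with a median of 0.10, and the 7 genes of sterol transport and storage none higher and 2 lower with a median of -0.43. The median over all genes was 0. These are bulk libraries, in which more RNA per cell and more cells with that RNA cannot be told apart.

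**Figure D1:**
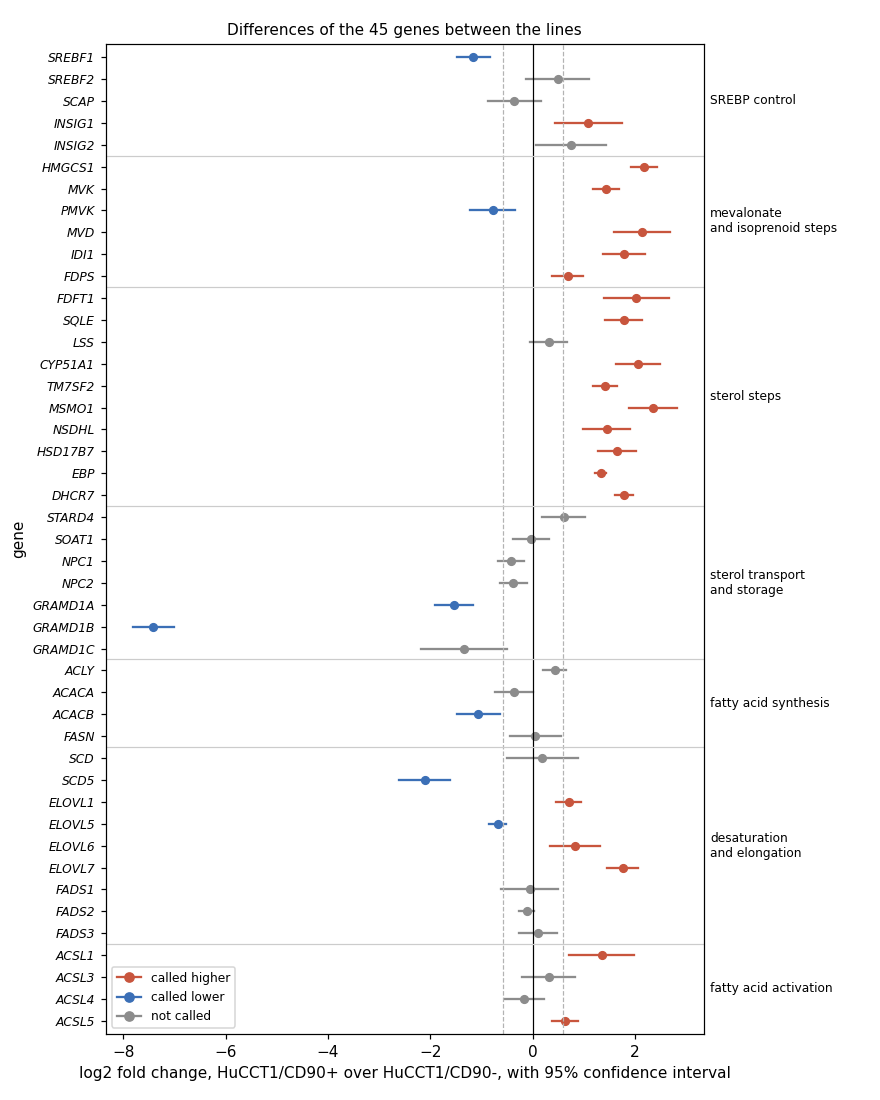
The log2 fold change of HuCCT1/CD90+ over HuCCT1/CD90- (horizontal axis) is plotted with its 95% confidence interval for the 45 genes by role, with red for called higher, blue for called lower, grey for not called and dashed lines at a fold of 1.5. The sterol steps lie to the right, with a median of 1.71, and GRAMD1B lies farthest to the left at -7.41.

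Control genes came apart. SREBF1, the gene of SREBP-1, fell in HuCCT1/CD90+. It gave 186, 252 and 213 RPM in HuCCT1/CD90- and 95.6, 97.6 and 95.1 RPM in HuCCT1/CD90+, a log2 fold change of -1.16 (SE 0.12, limma adjusted p = 0.0065). The HuCCT1/CD90+ libraries lay close together and well under every HuCCT1/CD90- library. SREBF2, the gene of SREBP-2, read 105, 182 and 126 RPM in HuCCT1/CD90- and 170, 207 and 188 RPM in HuCCT1/CD90+. These ranges overlapped, and the difference of 0.49 had a 95% interval of -0.13 to 1.11 (adjusted p = 0.26). SCAP, the sterol sensor that escorts SREBPs, also overlapped (-0.36, adjusted p = 0.31).

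INSIG1, which retains SCAP in the endoplasmic reticulum and is itself a known SREBP target, gave 59.8, 103 and 89.4 RPM in HuCCT1/CD90- and 153, 200 and 177 RPM in HuCCT1/CD90+. All 3 HuCCT1/CD90+ libraries were above all HuCCT1/CD90- libraries, and it was called higher (1.09, SE 0.24, adjusted p = 0.047). The call was lost without any 1 of the 6 libraries (adjusted p 0.051 to 0.14), with quantile normalization (0.051) and with trend and robust variance (0.054). INSIG1 lies on chromosome 7, where its 50 nearest genes had a median log2 fold change of 0.52. With that median taken off, the difference was 0.57 (adjusted p = 0.22). INSIG2, its relative, had 41 to 69 reads against 59 to 102, and a difference of 0.75 (adjusted p = 0.13) that did not pass.

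The early steps rose almost throughout. Of the 6 genes of mevalonate and isoprenoid formation 5 were higher and 1 lower. HMGCS1, the synthase that makes HMG-CoA, gave 69.0, 65.6 and 79.0 RPM in HuCCT1/CD90- and 341, 295 and 335 RPM in HuCCT1/CD90+, or 71.2 ± 6.95 against 324 ± 25.1 RPM (SD, n = 3). The gap was many times the spread in either line, a 4.55-fold difference in the mean and 2.17 on the log2 scale (SE 0.10, limma adjusted p = 0.00089). MVD, which decarboxylates the mevalonate product to isopentenyl diphosphate, rose too. Its values were 36.2, 58.6 and 47.9 RPM in HuCCT1/CD90- and 188, 227 and 214 RPM in HuCCT1/CD90+ (2.14, SE 0.20, adjusted p = 0.0052). IDI1, the isomerase of that product, read 35.2, 26.9 and 38.0 RPM in HuCCT1/CD90- and 122, 106 and 123 RPM in HuCCT1/CD90+ (1.79, SE 0.15, adjusted p = 0.0041). MVK, mevalonate kinase, went from 33.2, 31.4 and 28.1 RPM to 77.0, 87.9 and 91.0 RPM (1.44, SE 0.09, adjusted p = 0.0020). In each of these genes the lowest HuCCT1/CD90+ library exceeded the highest HuCCT1/CD90- library. The same held for 2335 of the 8794 genes averaging 10 RPM or more.

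PMVK, the kinase that acts between MVK and MVD, went the other way. It gave 62.5, 75.2 and 62.6 RPM in HuCCT1/CD90- and 34.9, 47.3 and 33.9 RPM in HuCCT1/CD90+ (-0.78, SE 0.16, adjusted p = 0.040). The lines did not overlap, but the call was lost without any library other than HuCCT1/CD90+ replicate 2 (adjusted p up to 0.12). PMVK and FDPS, the farnesyl diphosphate synthase, are both on chromosome 1, where the median of their neighbours was -0.32 and -0.36. With the neighbours' median taken off, PMVK differed by -0.46 (adjusted p = 0.15) and FDPS by 1.05 (adjusted p = 0.0073). FDPS as measured was called higher, from 305 ± 16.8 to 493 ± 62.2 RPM (0.68, SE 0.11, adjusted p = 0.021). Blocked on the replicate number, FDPS had an adjusted p of 0.096, and the call was also lost without any library other than HuCCT1/CD90+ replicate 1 (adjusted p up to 0.082). FDPS has 8 named pseudogene copies, so some of its reads could belong to near-identical sequence.

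Among the sterol steps, from squalene synthesis to the last reduction, 9 of the 10 genes matched by name were higher and none lower. With SC5D, measured under an older symbol and not called, this was 9 of 11. MSMO1, the methyl sterol oxidase, showed the widest difference. It gave 122, 83.5 and 117 RPM in HuCCT1/CD90- and 586, 504 and 550 RPM in HuCCT1/CD90+, 5.09-fold in the mean (2.35, SE 0.17, adjusted p = 0.0026). CYP51A1, the lanosterol demethylase, read 240, 221 and 285 RPM in HuCCT1/CD90- and 1022, 884 and 1222 RPM in HuCCT1/CD90+ (2.06, SE 0.16, adjusted p = 0.0032). It lies on chromosome 7 among genes with a median of 0.62, and without that median it was still called (1.44, adjusted p = 0.0083). It has 3 named pseudogene copies.

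FDFT1, the squalene synthase that commits farnesyl diphosphate to sterol, gave 99.5, 90.9 and 144 RPM in HuCCT1/CD90- and 432, 380 and 544 RPM in HuCCT1/CD90+ (2.02, SE 0.24, adjusted p = 0.0091). SQLE, the squalene epoxidase and a rate-limiting step, read 17.3, 18.1 and 19.7 RPM in HuCCT1/CD90- and 77.8, 56.5 and 62.9 RPM in HuCCT1/CD90+ (1.77, SE 0.14, adjusted p = 0.0029). DHCR7, the last reductase on the route through 7-dehydrocholesterol, went from 57.7, 60.0 and 55.6 RPM to 213, 185 and 209 RPM (1.79, SE 0.07, adjusted p = 0.00055). Among the sterol steps the SE was smallest for DHCR7 and for EBP, the sterol isomerase, which rose from 283 ± 13.8 to 712 ± 5.90 RPM (1.33, SE 0.04, adjusted p = 0.00043). TM7SF2 (1.42), NSDHL (1.45) and HSD17B7 (1.64), which reduce or remove groups from the sterol ring, were called higher too, with adjusted p of 0.0018, 0.0093 and 0.0038. HSD17B7 has 2 named pseudogene copies.

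The exceptions in this stretch could not be read from these libraries or did not move. The LSS amplicon, for the lanosterol synthase, gave only 0 to 2 reads in HuCCT1/CD90- and 2 to 5 in HuCCT1/CD90+, too few to read a difference. SC5D, the sterol desaturase before DHCR7, was listed under its older symbol SC5DL and so fell outside the list's names. SC5DL gave 21.3, 19.6 and 21.7 RPM in HuCCT1/CD90- and 19.6, 19.1 and 20.6 RPM in HuCCT1/CD90+, with overlapping ranges (-0.07, 95% interval -0.21 to 0.06, adjusted p = 0.45).

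**Figure D2:**
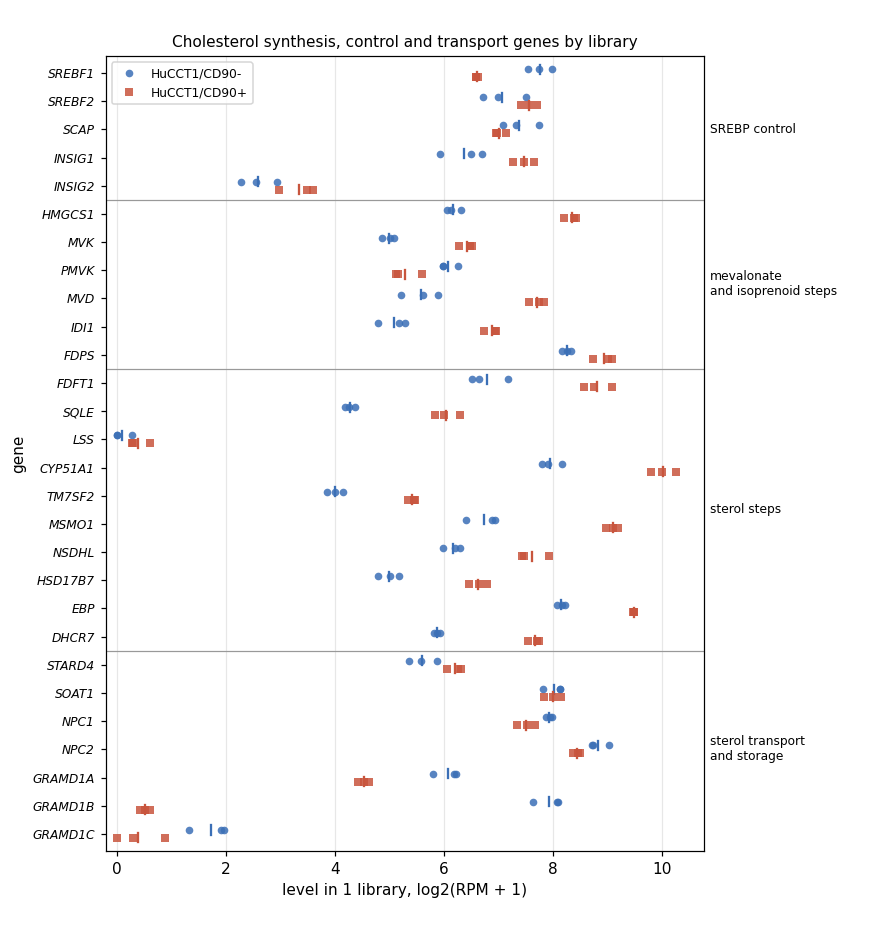
The level of each gene in each library, as log2(RPM + 1) (horizontal axis), is plotted for the control, synthesis and transport genes, with circles for HuCCT1/CD90-, squares for HuCCT1/CD90+ and short bars for the mean of 3 libraries. Squares lie right of circles for HMGCS1, MSMO1 and the other called sterol enzymes, and left of them for SREBF1, PMVK, GRAMD1A and GRAMD1B.

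The transport and storage genes held no higher call. GRAMD1A, GRAMD1B and GRAMD1C encode the Aster proteins, which carry plasma membrane cholesterol to the endoplasmic reticulum. GRAMD1B gave 198, 272 and 269 RPM in HuCCT1/CD90- and 0.536, 0.349 and 0.434 RPM in HuCCT1/CD90+, or 7408 reads in all against 12. Scaled to library size this was a 554-fold difference, with an exact 95% interval of 317 to 1074 that covers counting error only. On the log2(RPM + 1) scale, which understates it, the change was -7.41 (SE 0.15, adjusted p = 0.00026), and the 50 nearest genes had a median of 0.21. The amplicon was close to the floor of 3 reads in each HuCCT1/CD90+ library, with 3 to 5 reads.

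GRAMD1A fell in the same direction over a smaller range. It read 54.7, 73.9 and 71.6 RPM in HuCCT1/CD90- and 23.7, 22.4 and 20.6 RPM in HuCCT1/CD90+ (-1.53, SE 0.14, adjusted p = 0.0046). GRAMD1C, at 16 to 30 reads against 0 to 8, differed by -1.34 and missed the threshold (adjusted p = 0.054), while edgeR on the recovered reads called it (adjusted p = 0.0011). STARD4, a soluble sterol carrier, differed by 0.61 without overlap (adjusted p = 0.068), and edgeR called it too (adjusted p = 0.0050). NPC1 and NPC2, which pass cholesterol out of lysosomes, differed by -0.43 and -0.38. NPC1 passed the p threshold but not the fold (adjusted p = 0.049), and NPC2 neither (adjusted p = 0.070). SOAT1, which esterifies cholesterol for storage, gave 261 ± 32.5 against 255 ± 26.9 RPM (-0.03, 95% interval -0.39 to 0.32).

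In the fatty acid arm, none of the 4 enzymes that lead to palmitate was called higher and 1 was lower. FASN, the fatty acid synthase, gave 902, 1032 and 902 RPM in HuCCT1/CD90- and 761, 1159 and 1064 RPM in HuCCT1/CD90+. The ranges overlapped, with a difference of 0.05 and a 95% interval of -0.44 to 0.55 (adjusted p = 1.0). ACACA, the cytosolic acetyl-CoA carboxylase, read 209, 161 and 180 RPM in HuCCT1/CD90- and 124, 158 and 145 RPM in HuCCT1/CD90+ (-0.36, 95% interval -0.74 to 0.01, adjusted p = 0.17). The lines were separated by a narrow gap between 158 and 161 RPM. ACACB, the carboxylase known for restraining fatty acid oxidation at mitochondria, was called lower. Its libraries gave 14.4, 21.1 and 16.2 RPM in HuCCT1/CD90- and 7.08, 8.38 and 7.49 RPM in HuCCT1/CD90+ (-1.06, SE 0.16, adjusted p = 0.016). The ACACB call was lost without HuCCT1/CD90- replicate 3 or any HuCCT1/CD90+ library (adjusted p up to 0.069). ACLY, which makes cytosolic acetyl-CoA for both arms, went from 398 ± 37.6 to 534 ± 29.5 RPM. Its difference of 0.43 passed the p threshold (adjusted p = 0.035) but not the fold.

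Of 9 desaturases and elongases 3 were higher and 2 lower. SCD, the main stearoyl-CoA desaturase, overlapped, with 705, 1094 and 1233 RPM in HuCCT1/CD90- and 980, 1113 and 1297 RPM in HuCCT1/CD90+ (0.19, 95% interval -0.50 to 0.88, adjusted p = 0.75). HuCCT1/CD90- replicate 1 was the low library. SCD5, its relative, fell from 9.10, 9.10 and 10.2 RPM to 2.14, 1.05 and 1.19 RPM (-2.11, SE 0.19, adjusted p = 0.0044), with 9 to 20 reads left in HuCCT1/CD90+. The polyunsaturated desaturases FADS1, FADS2 and FADS3, which lie side by side on chromosome 11, had differences of -0.06, -0.12 and 0.10, and all 3 overlapped between the lines.

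The elongases split. ELOVL7 gave 19.6, 25.5 and 21.1 RPM in HuCCT1/CD90- and 79.4, 71.5 and 78.7 RPM in HuCCT1/CD90+ (1.75, SE 0.11, adjusted p = 0.0019). ELOVL1, which elongates saturated and monounsaturated very long chains, read 136, 114 and 111 RPM in HuCCT1/CD90- and 197, 199 and 191 RPM in HuCCT1/CD90+ (0.70, SE 0.09, adjusted p = 0.011). ELOVL6, which extends palmitate, gave 59.0, 37.2 and 51.5 RPM in HuCCT1/CD90- and 87.5, 86.8 and 85.3 RPM in HuCCT1/CD90+ (0.82, SE 0.18, adjusted p = 0.046). The HuCCT1/CD90+ libraries were tight in ELOVL1 and ELOVL6, and the HuCCT1/CD90- libraries were spread. The ELOVL6 call was lost with the replicate block (adjusted p = 0.11) and without HuCCT1/CD90- replicate 3 or any HuCCT1/CD90+ library (adjusted p up to 0.14). Quantile normalization and trend and robust variance each gave an adjusted p of 0.054 for ELOVL6, and with the neighbours' median of 0.26 taken off its difference was 0.57 (adjusted p = 0.12). ELOVL5, which extends polyunsaturated chains, was called lower, from 316 ± 19.4 to 196 ± 9.31 RPM (-0.69, SE 0.06, adjusted p = 0.0044). Its adjusted p was 0.051 with the replicate block. With the neighbours' median of -0.22 taken off, its difference was -0.47, under the fold threshold.

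Among the acyl-CoA synthetases, which activate fatty acids for use, 2 of 4 were higher. ACSL1 gave 10.6, 18.5 and 16.7 RPM in HuCCT1/CD90- and 38.2, 45.1 and 35.7 RPM in HuCCT1/CD90+ (1.35, SE 0.24, adjusted p = 0.025). The lines did not overlap, but with the replicate block the adjusted p of ACSL1 was 0.065. The call was lost as well without HuCCT1/CD90- replicate 3 or any HuCCT1/CD90+ library (adjusted p up to 0.084) and with the neighbours' median of 0.31 taken off (1.05, adjusted p = 0.053). ACSL5 read 90.5, 97.2 and 93.1 RPM in HuCCT1/CD90- and 135, 167 and 137 RPM in HuCCT1/CD90+ (0.63, SE 0.10, adjusted p = 0.017). This call was lost without any library other than HuCCT1/CD90+ replicate 1 (adjusted p up to 0.067). ACSL3 and ACSL4 overlapped between the lines, with differences of 0.32 (adjusted p = 0.38) and -0.16 (adjusted p = 0.57).

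**Figure D3:**
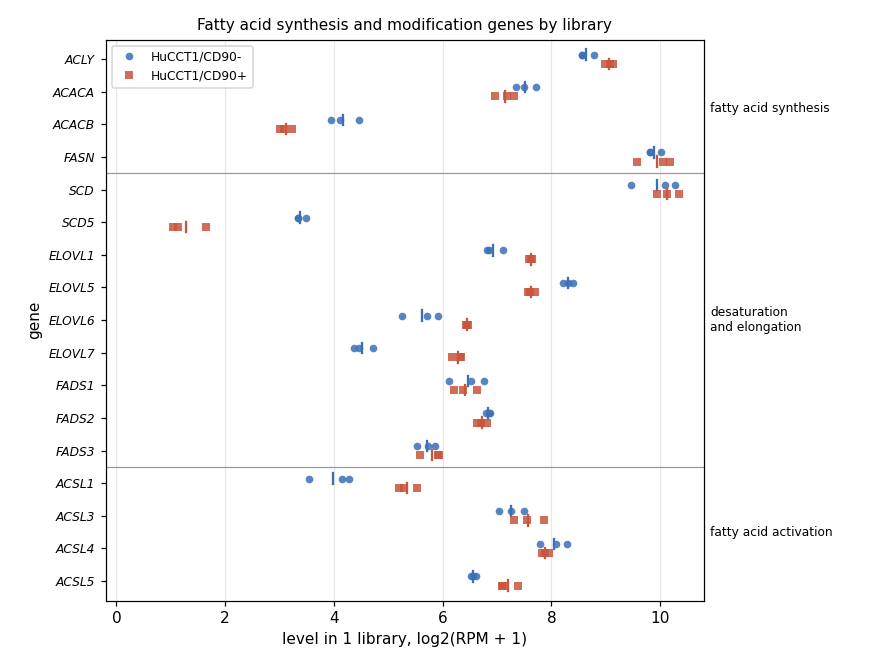
The level of each fatty acid gene in each library, as log2(RPM + 1) (horizontal axis), is plotted with circles for HuCCT1/CD90-, squares for HuCCT1/CD90+ and short bars for the mean of 3 libraries. FASN, SCD and the FADS genes overlap between the lines, ELOVL7 and ACSL1 lie higher in HuCCT1/CD90+, and SCD5 and ACACB lie lower.

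Genes near each other on some chromosomes differed together between the lines, so each member was set beside its 50 nearest expressed genes. The neighbours' median ran from -0.44 at SOAT1 to 0.62 at CYP51A1 over the 45 genes. The sterol enzymes are spread over the genome. Those whose neighbours had a median below 0 were called higher, apart from PMVK and LSS. Copy number was not measured, and the cause of the differences was not tested. HSD17B7, among chromosome 1 genes with a median of -0.35, differed by 1.64 as measured and by 1.99 with that median taken off (adjusted p = 0.0024). MVD, with neighbours at -0.24, differed by 2.14 and 2.38 in the same way. MSMO1 shared chromosome 4 with neighbours at 0.33, and its difference went from 2.35 to 2.03 (adjusted p = 0.0040). The calls that ended when the neighbours' median was taken off were those of INSIG1, PMVK, ELOVL5, ELOVL6 and ACSL1. GRAMD1C gained a call (adjusted p = 0.031).

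**Figure D4:**
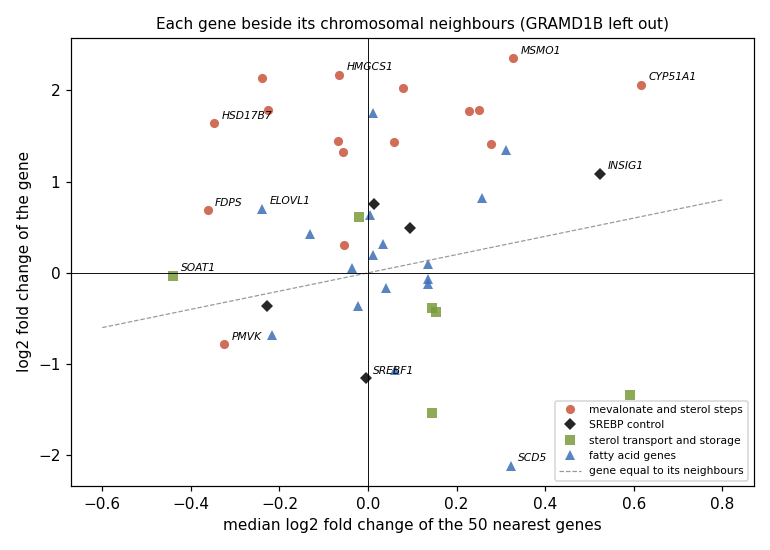
Each gene's log2 fold change (vertical axis) is plotted against the median log2 fold change of its 50 nearest genes on the chromosome (horizontal axis), with marks for role and a dashed line where the values are equal. GRAMD1B is left out of the plot. CYP51A1 (2.06) and INSIG1 (1.09) lie to the right, and HSD17B7 (1.64) and FDPS (0.68) lie to the left, above zero.

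Other lipid genes, in 6 lists of 102 genes, gave 13 genes called higher and 11 called lower, with a median of -0.01. These shares of 12.7% and 10.8%, over lists in which 65 genes averaged 10 RPM or more, stood beside 7.59% and 7.49% of all genes and 11.3% and 10.4% of genes at that level. Of 16 other isoprenoid and sterol enzymes 2 were higher and 2 lower. CYP27A1, the mitochondrial sterol 27-hydroxylase that makes an oxysterol, went from 37.4 ± 2.77 to 11.4 ± 3.58 RPM (-1.67, adjusted p = 0.013). Its call was lost without HuCCT1/CD90- replicate 2 or 3 or HuCCT1/CD90+ replicate 1 (adjusted p up to 0.055). FAXDC2, listed as C5orf4, was called lower, at 43 to 56 reads against 4 to 10 (-1.65, adjusted p = 0.013), and the call was lost without HuCCT1/CD90- replicate 3 (adjusted p = 0.052). The genes that rose on that list were ACAT2, the cytosolic thiolase before HMGCS1 (1.26, adjusted p = 0.042, with the replicate block 0.093), and C14orf1, a scaffold of the sterol enzymes (1.18, adjusted p = 0.0076). ACAT2 lost the call without any library other than HuCCT1/CD90- replicate 2 (adjusted p up to 0.12), and both were named after their values were seen. GGPS1, on the same list and also named after its values were seen, gained a higher call with the neighbours' median taken off (0.71, adjusted p = 0.033).

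Among 14 genes of sterol uptake, efflux and transport outside the members, 3 were higher and 4 lower. With the replicate block OSBPL2 (adjusted p 0.022 to 0.072) and STARD5 (0.013 to 0.089) lost a higher call, and OSBP (0.10 to 0.041) and OSBPL5 (0.059 to 0.041) gained one. OSBPL2 also lost its call without HuCCT1/CD90- replicate 3 or any HuCCT1/CD90+ library (adjusted p up to 0.081). These 4 were named after their values were seen. ABCA1, the cholesterol exporter, gave 51.8, 82.6 and 76.1 RPM in HuCCT1/CD90- and 3.00, 3.14 and 1.52 RPM in HuCCT1/CD90+ (-4.33, SE 0.29, adjusted p = 0.0021). Every HuCCT1/CD90+ library was far under every HuCCT1/CD90- library. LIPA, the lysosomal acid lipase that frees cholesterol from lipoprotein esters, read 208, 197 and 228 RPM in HuCCT1/CD90- and 1130, 1059 and 1074 RPM in HuCCT1/CD90+ (2.36, SE 0.07, adjusted p = 0.00038). Other genes here were singled out after their values were seen. MYLIP, a liver X receptor target that degrades lipoprotein receptors, differed by -1.02 (adjusted p = 0.0085), at 28 to 32 reads against 7 to 10. SCARB1, the receptor for high-density lipoprotein, went from 93.3 ± 8.93 to 44.6 ± 3.74 RPM (-1.05, adjusted p = 0.0054).

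Of 16 other regulators 1 was higher and 2 lower. NR1H3, the gene of liver X receptor alpha, gave 12.0, 18.9 and 12.1 RPM in HuCCT1/CD90- and 3.54, 3.73 and 3.25 RPM in HuCCT1/CD90+ (-1.74, SE 0.20, adjusted p = 0.0082). The lines did not overlap. MBTPS1, the protease that makes the opening cut in SREBPs, went from 180 ± 8.79 to 111 ± 8.38 RPM (-0.69, SE 0.07, adjusted p = 0.0063), and its adjusted p was 0.061 with the replicate block. With the neighbours' median taken off, MBTPS1 differed by -0.52, under the fold threshold. MLXIPL, the carbohydrate response factor, was called higher at 2 to 3 reads against 6 to 9, too few for a firm reading, and lost the call with the replicate block (adjusted p = 0.055) and with the neighbours' median taken off (0.36, adjusted p = 0.051). It was named after its values were seen, and the call was lost without any library other than HuCCT1/CD90+ replicate 1 (adjusted p up to 0.080). Of 18 further genes of fatty acid supply and elongation 1 was called, HSD17B12, the reductase of the elongation cycle (0.77, adjusted p = 0.034). With the replicate block its adjusted p was 0.10, and the call was kept only without HuCCT1/CD90- replicate 3 when a library was left out (adjusted p up to 0.11). It was lost as well with the neighbours' median taken off (0.61, adjusted p = 0.064).

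**Figure D5:**
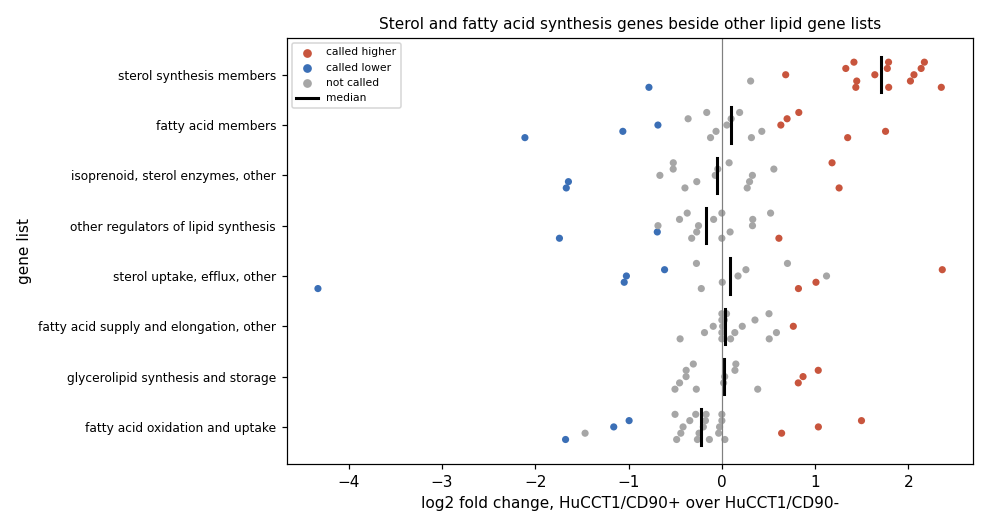
The log2 fold change of each gene (horizontal axis) is plotted by list, with red for called higher, blue for called lower, grey for not called and a black bar at the list's median. The sterol synthesis members (median 1.71) stand to the right of the fatty acid members (median 0.10) and of the other lists, and ABCA1 lies farthest to the left at -4.33.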

How the data were processed

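Total RNA was extracted from HuCCT1 cells of both lines for 6 libraries, and an Ion AmpliSeq panel was sequenced (Ion GeneStudio S5 Prime). Amplicon reads were counted by the authors in the Torrent Suite Server (ampliSeqRNA plugin), and 1 table of RPM, reads scaled to a common library total, was deposited. Per the labels, hg19 and the Transcriptome Analysis Console were used. The counting's use of strand was not given in the sources used here. The deposited RPM were whole multiples of 1 read in 100% of values (tolerance 0.001 RPM), which gave the reads back; 3 reads equal 0.284 to 0.349 RPM.

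The 46 genes and all lists were chosen with earlier results of these data known. limma 3.58.1 (R 4.3.3) was fitted on log2(RPM + 1) over all 20811 genes, 3805 of them at 0 in every library, with 2-sided moderated tests. limma's eBayes, the fold of 1.5 and the limit of 0.05 follow the study, which names no adjustment of the p; the Benjamini-Hochberg adjustment was added here. A call needed adjusted p of at most 0.05 and a fold of at least 1.5. Within a line the libraries were named by the labels' replicate numbers. Deviations of same-numbered libraries correlated (r = 0.21, 0.32 and 0.18, against -0.29 to 0.07 for different numbers). A fit that took the numbers as pairs was therefore added, and the blocked value is given where it changes a call. All other adjusted p ignore this pairing. For calls that stood, the blocked limma adjusted p could be much larger: 0.015 for HMGCS1, 0.014 for GRAMD1B, 0.039 for SREBF1 and 0.046 for GRAMD1A. Every pair of libraries differed beyond sampling noise (chi-square test of reads). Alternatives were other offsets (0.1 and 5 RPM), filters on the mean (at least 1 or 10 RPM), quantile normalization, median centring, trend and robust variance, the replicate block, each library left out, no fold or a fold of 2, the unadjusted p, edgeR 4.0.16 and DESeq2 1.42.0 on the recovered reads, and the median of the 50 nearest genes (mean of at least 10 RPM) taken off. Fits were tested on simulated data.

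Every member was placed by role, and values by library are given for the called members with the greatest change (up to 4 a role) and for SREBF1, SREBF2, INSIG1, HMGCS1, SQLE, ACACA, FASN and SCD. From each other list the called genes with the greatest change, at most 2, were named; any other is said to be named after its values were seen. Pseudogenes and overlapping exons came from GENCODE 29: 7 members overlap an exon on their own strand and 19 on the opposite one, where reads could be shared.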

Additional observations from a re-analysis of the deposited data

How the results depend on the processing

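There were 17 settings that kept the call rule and changed the scale, filter, model, libraries or tool. Of the 27 called members 19 kept the call in each of these settings that fitted them, and none changed sign. SCD5, among the 19, averaged under 10 RPM and so was absent from the fit limited to genes of at least 10 RPM. The other 8 are given in the report. Under those settings member counts ran from 15 to 22 higher and 5 to 8 lower, and with the replicate block were 17 higher and 6 lower. Another call rule gave 16 and 5 with a fold of 2, 21 and 8 with no minimum fold, which adds ACLY and NPC1, and 22 and 8 with the unadjusted p. Over all genes the unadjusted p gave 2110 and 2076. edgeR on the recovered reads called 2111 genes higher and 2089 lower, DESeq2 2172 and 2064. Over all genes the replicate block gave 1091 higher and 1011 lower calls, a minimum fold of 2 gave 952 and 922, and leaving out a library 960 to 1174 and 908 to 1240, against 1580 and 1558. The block changed no other member's call than those of FDPS, ELOVL5, ELOVL6 and ACSL1. Among members not called, the sign turned with the neighbours' median taken off for SOAT1 (0.40) and FADS3 (-0.032), and with a library left out for SOAT1 (-0.14 to 0.046), FASN (-0.068 to 0.24), SCD (-0.049 to 0.35) and FADS1 (-0.23 to 0.082); the cause was not tested. INSIG2, STARD4 and GRAMD1C were called in at least 1 of the 17 settings. With 3 libraries a line, differences near the fold of 1.5 rest on few values, and amplicons at a few reads, as for LSS, cannot show a difference at this depth.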

Other observations

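Genes that use or store fatty acids were also measured. Of 14 genes of glycerolipid synthesis and storage 3 were higher in HuCCT1/CD90+ and none lower, with a median log2 fold change of 0.02. LPIN3, a phosphatidate phosphatase, went from 4.66 ± 0.315 to 10.6 ± 1.23 RPM (SD, n = 3; 1.03, limma adjusted p = 0.0045). AGPAT2, an acyltransferase of the same route, went from 44.9 ± 3.91 to 83.2 ± 12.0 RPM (0.87, adjusted p = 0.017). With the replicate block its adjusted p was 0.051, and the call was kept without HuCCT1/CD90+ replicate 1 or 2 and lost without any of the other libraries (adjusted p up to 0.060). DGAT1, which makes triacylglycerol, was higher by 0.82 (adjusted p = 0.020, with the replicate block 0.063). Its call was lost without HuCCT1/CD90- replicate 1 or any HuCCT1/CD90+ library (adjusted p up to 0.079), and DGAT1 was named after its values were seen.

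Of 24 genes of fatty acid oxidation and uptake 3 were higher and 3 lower, with a median of -0.22. PPARGC1A, a coactivator of oxidative genes, was called lower, at 36 to 78 reads against 7 to 10 (-1.68, adjusted p = 0.014). Its adjusted p was 0.053 with the replicate block, and the call was lost without any HuCCT1/CD90+ library (adjusted p up to 0.061). PPARD, a nuclear receptor for fatty acids, gave 49.4, 58.2 and 46.0 RPM in HuCCT1/CD90- and 121, 180 and 142 RPM in HuCCT1/CD90+ (2.88-fold in the mean, adjusted p = 0.0097). All HuCCT1/CD90+ libraries lay above all HuCCT1/CD90- libraries. The replicate block also ended the calls of CPT1A (-1.16, adjusted p 0.022 to 0.11) and PPARA (1.03, 0.0095 to 0.071), both named after their values were seen. CPT1A lost its call as well without any library other than HuCCT1/CD90+ replicate 2 (adjusted p up to 0.083). With the neighbours' median taken off, HADH gained a call (-0.80, adjusted p = 0.022), and it was named after its values were seen.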
